A study of Mus musculus with 6 samples.

Results

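The genes described here are 10 genes by which Müller glia and their response to injury are usually recognized. They were taken by symbol from a table of read counts on 32371 mouse genes, and all 10 were found. Of these, 7 are identity genes of resting Müller glia (Glul, Rlbp1, Slc1a3, Aqp4, Sox9, Dkk3 and Clu) and 3 are gliosis genes (Gfap, Vim and Nes). The counts came from 6 RNA-Seq libraries, 3 from C57BL/6J mice injected with AAV2-GFP as the control and 3 from C57BL/6J mice injected with AAV2-Ezh2-Y726D, a mutant of the histone methyltransferase Ezh2 that lacks catalytic activity. The mice were adult. Both groups received the virus in the vitreous, an optic nerve crush (ONC) 2 weeks later and cell sorting 3 days after the crush, so that neither group shows the uninjured retina. Live cells carrying CD90.2 (Thy1) at their surface were sorted and labelled as retinal ganglion cells (RGCs). The sources used here do not say how many mice went into a library, so the P values below measure the spread between libraries, which may be technical.

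Müller glia are the principal glial cells of the retina and span its whole thickness. They take up and recycle glutamate, move potassium and water, and return retinoid to cones. After injury they enter gliosis, in which the intermediate filament genes Gfap and Vim are classically raised, and in some injuries they take on features of progenitors, of which nestin is a textbook marker. Ezh2 is the catalytic subunit of PRC2, the complex that places H3K27me3, a silencing mark found mainly at promoters rich in CpG.

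The comparison asked whether identity and gliosis genes differed between Ezh2-Y726D and GFP. Both classes held genes that rose and genes that fell. Among the identity genes, Sox9, Dkk3 and Clu were higher and Slc1a3 was lower after Ezh2-Y726D overexpression. Among the gliosis genes, Gfap and Vim were lower and Nes was higher. These differences were small, from 1.29-fold higher for Nes to 1.22-fold lower for Gfap, and 0 of the 10 genes passed a fold change of 1.5 together with an adjusted P under 0.05. Of all genes tested, 8.02% passed both thresholds, 2.52% higher and 5.5% lower.

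The promoters of Gfap, Nes and Slc1a3 are shown as examples picked with the fold changes known. Nes, which rose, has a promoter rich in CpG, while Gfap and Slc1a3, which both fell, have promoters poor in CpG. Glul and Vim, described below, did not follow this pattern. RefSeq's promoter table (GRCm38.p6) held a window of 300 bases around the start of Glul, Rlbp1, Slc1a3, Gfap, Vim and Nes. The stretches printed are those of the window that lie upstream of the RefSeq start and hold no annotated exon, on the strand of the gene, with each CpG in capitals. They lie at chr11:102897201-102897450 on the minus strand for Gfap, at chr3:87970843-87971077 on the plus strand for Nes and at chr15:8710808-8711057 on the minus strand for Slc1a3. The stretch of Gfap lies inside the gene as GENCODE annotates it, since that annotation extends upstream to 102900912, past the RefSeq start.
Gfap: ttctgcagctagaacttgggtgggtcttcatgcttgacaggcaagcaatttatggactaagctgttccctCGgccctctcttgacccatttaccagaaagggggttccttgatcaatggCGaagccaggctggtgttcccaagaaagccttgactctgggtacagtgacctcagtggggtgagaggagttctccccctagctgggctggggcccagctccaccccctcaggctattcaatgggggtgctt
Nes: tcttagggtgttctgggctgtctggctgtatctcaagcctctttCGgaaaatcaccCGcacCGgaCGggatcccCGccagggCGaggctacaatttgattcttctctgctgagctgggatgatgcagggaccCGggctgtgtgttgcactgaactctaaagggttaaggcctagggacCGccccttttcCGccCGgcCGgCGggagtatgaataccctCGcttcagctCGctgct
Slc1a3: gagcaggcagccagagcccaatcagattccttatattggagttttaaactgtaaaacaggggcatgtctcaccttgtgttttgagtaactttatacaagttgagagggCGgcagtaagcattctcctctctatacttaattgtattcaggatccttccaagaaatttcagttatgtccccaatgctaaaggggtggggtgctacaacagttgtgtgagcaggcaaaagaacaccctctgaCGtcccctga
The stretch of Nes held 14 CpGs, and those of Gfap and Slc1a3 held 2 each. Over the full window of 300 bases, Gfap and Slc1a3 had 3 CpGs each, and 23.3% of the 32851 mouse promoters in the table held fewer. Nes had 18 and Glul 17, with 70.3% and 68.6% of promoters below them. Vim, with 11 CpGs, and Rlbp1, with 8, lay nearer to the median of 7. The direction did not follow CpG content in every window. Glul, rich in CpG like Nes, did not rise (log2 fold change -0.09, not called), and Vim, above the median, fell. Sox9, Dkk3, Clu and Aqp4 had no window in the table, and the relation of CpG to the fold changes was not tested. The letters TTCNNNGAA, which Stat factors bind, were searched on both strands and occurred once in the full windows of Gfap and Slc1a3 and in 8.3% of all promoters. In Slc1a3 the match lies in the printed stretch, and in Gfap it includes bases outside it. A match of letters describes the sequence and not a site of binding.

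Total counts ran from 9333244 to 23782520 per library. The rRNA gene CT010467.1 took 50.9% of the reads of GFP replicate 2, 52.2% of those of GFP replicate 3 and between 2.55% and 16.1% in the other libraries. Ezh2 counts, which do not separate the vector from the endogenous gene, lay between 22.7 and 26.4 CPM in GFP and between 65.2 and 65.6 CPM after Ezh2-Y726D. CPM stands for read counts brought to a common library size with edgeR's TMM factors. Of all genes, 18138 passed edgeR's filter on low counts, among them all 10 Müller glia genes, and were compared by its quasi-likelihood test. A gene was called at an adjusted P under 0.05, which 27.5% of all genes reached, 13.9% higher and 13.6% lower. With 3 libraries against 3, an exact permutation test of a single gene cannot give a 2-sided P under 0.1, and the calls depend on edgeR's sharing of variance information among genes.

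Müller glia genes were abundant in these libraries of cells labelled as RGCs. To compare levels between genes, CPM was divided by the exonic length in kilobases. In GFP, the level was 895 ± 14.4 CPM per kb for Glul, 669.6 ± 25.3 for Clu, 548 ± 8.61 for Dkk3 and 189.8 ± 8.92 for Rlbp1 (SD, n = 3 libraries). Vim followed with 109.9 ± 7.15 CPM per kb, Aqp4 with 76.6 ± 3.71, Slc1a3 with 76.5 ± 3.11 and Gfap with 54.5 ± 3.32 (SD, n = 3 libraries). Gfap, the lowest of these 8 genes, still stood above 98.1% of all genes tested. Sox9 and Nes were the lowest, with 9.11 ± 1.08 and 8.48 ± 0.416 CPM per kb (SD, n = 3 libraries). The libraries of Aqp4 and Slc1a3 overlapped in this order, as did those of Sox9 and Nes, while all other neighbours were separate.

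The order was the same after Ezh2-Y726D except at its end, where Nes lay at 10.8 ± 1.03 and Sox9 at 10.7 ± 0.267 CPM per kb (SD, n = 3 libraries), with libraries that overlapped. The 11 RGC markers examined were all detected, with a median level of 6.55 CPM per kb in GFP, against 189.8 for the identity genes. They ran from 0.55 for Pou4f2 to 42.8 for Nefl, with Thy1, the sorted antigen, at 35.2 and Sncg at 34.5. The RGC list holds several transcription factor genes and the identity list only Sox9, so these medians compare unlike sets. Rod markers had a median of 50.0 CPM per kb over 7 genes. The counts come from bulk RNA, in which fewer cells of a type and less RNA per cell cannot be told apart.

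Glul (chromosome 1, 153899944 to 153909723, plus strand, GRCm38) encodes glutamine synthetase, which turns glutamate taken up from synapses into glutamine. GFP libraries had 2957, 2936 and 3027 CPM of Glul, and Ezh2-Y726D libraries had 2872, 2739.5 and 2766 CPM. All Ezh2-Y726D libraries lay close below the GFP libraries, without overlap. The log2 fold change of Glul was -0.09 (95% interval -0.17 to -0.01), and it did not pass the threshold after adjustment (adjusted P = 0.0873, edgeR). It passed in 4 of the alternatives tried, among them DESeq2 (adjusted P = 0.0198).

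Slc1a3 (chromosome 15, 8634124 to 8710764, minus strand) encodes GLAST, the glutamate transporter that supplies this reaction in Müller glia. Its libraries had 646, 631 and 683 CPM in GFP, against 605, 580.1 and 593 CPM with Ezh2-Y726D. The groups did not overlap, and Slc1a3 fell by 0.14 on the log2 scale (SE 0.0396, adjusted P = 0.00802, edgeR). The call rested on GFP replicate 3, the highest of the GFP libraries, without which the log2 fold change was -0.11 (adjusted P = 0.0511, edgeR).

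Rlbp1 (chromosome 7, 79374870 to 79387048, minus strand), which encodes the retinaldehyde-binding protein of the visual cycle, had 573, 531 and 579 CPM in GFP, against 559.6, 530.0 and 527 CPM with Ezh2-Y726D. The libraries overlapped, and the difference on the log2 scale was -0.06 (95% interval -0.14 to 0.03). Aqp4, the water channel of Müller glial endfeet and of astrocytes, had 460.2, 468 and 504 CPM in GFP, against 464, 459 and 470.0 CPM with Ezh2-Y726D. Its libraries overlapped too, with a difference of -0.04 on the log2 scale (95% interval -0.12 to 0.05).

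Sox9, Dkk3 and Clu went the other way. Sox9 (chromosome 11, 112782224 to 112787760, plus strand) encodes a transcription factor that Müller glia keep from the retinal progenitor. Sox9 counts amounted to 40.5, 32.5 and 40.0 CPM in GFP, against 45.5, 44.0 and 43.4 CPM with Ezh2-Y726D, and the groups did not overlap. Sox9 rose by 0.21 on the log2 scale (SE 0.0651, adjusted P = 0.0157, edgeR). GFP replicate 2 was the lowest of all libraries for Sox9, and without it the log2 fold change was 0.13 (adjusted P = 0.125, edgeR).

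Dkk3 (chromosome 7, 112116017 to 112159057, minus strand) encodes a secreted protein of the Dickkopf family. Its level was 1841, 1812 and 1869.7 CPM in GFP, against 2139, 2061 and 2052 CPM with Ezh2-Y726D, so that every Ezh2-Y726D library was higher than every GFP library. The rise was 0.18 on the log2 scale (SE 0.0366, adjusted P = 0.00035, edgeR). Clu (chromosome 14, 65968483 to 65981547, plus strand) encodes clusterin, a secreted chaperone that neurons and astrocytes also express. Clu was measured at 2337, 2202 and 2364 CPM in GFP, against 2718, 2632 and 2574 CPM with Ezh2-Y726D, again without overlap. It rose by 0.20 on the log2 scale (SE 0.0398, adjusted P = 0.000272, edgeR). With any single library left out, Dkk3 stayed between 0.16 and 0.19 and Clu between 0.17 and 0.22.

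**Figure D1:**
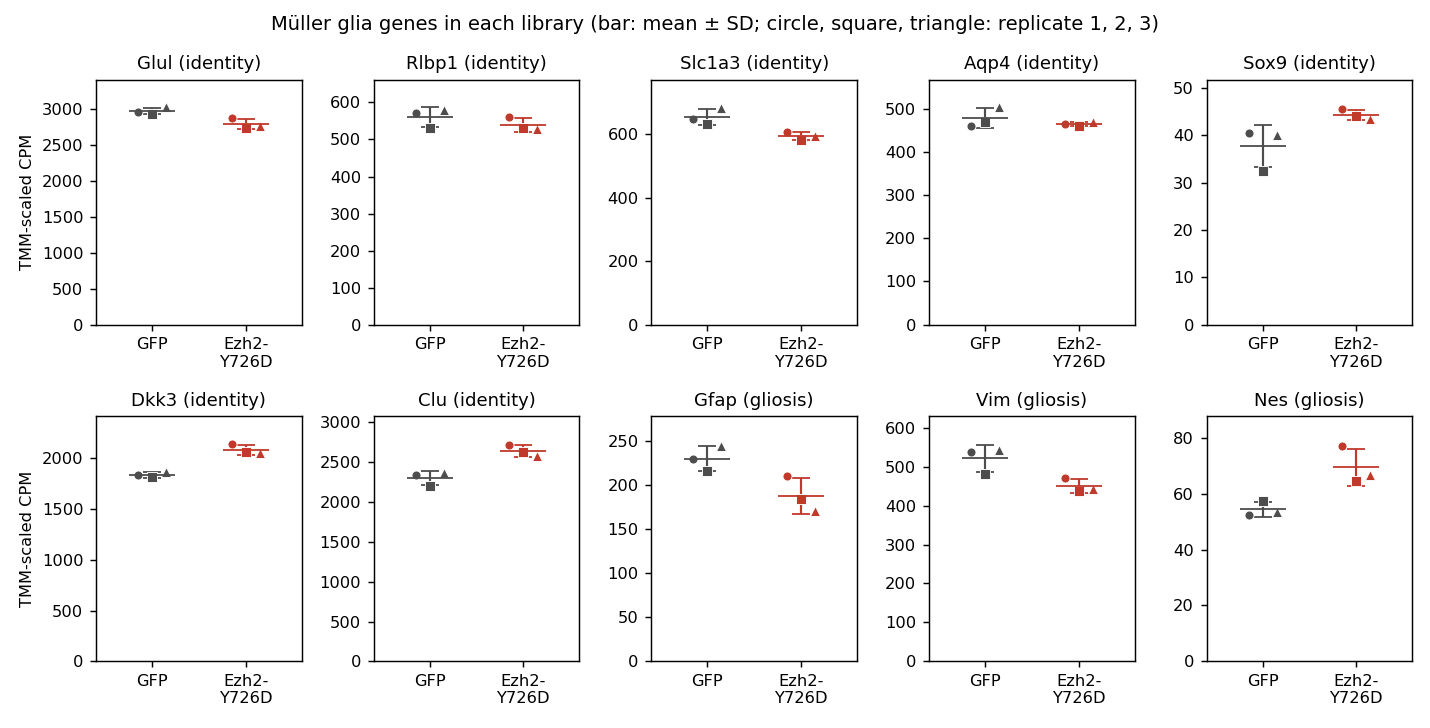
TMM-scaled CPM (vertical axis, from 0) of the 10 Müller glia genes in the 3 GFP (grey) and 3 Ezh2-Y726D (red) libraries, with the mean and SD of each group. Gfap, Vim, Slc1a3 and Glul lie lower and Sox9, Dkk3, Clu and Nes higher after Ezh2-Y726D without overlap, while Rlbp1 and Aqp4 overlap.

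Gfap, Vim and Nes encode intermediate filament proteins. Gfap (chromosome 11, 102887336 to 102900912, minus strand) is nearly silent in resting Müller glia and is the usual marker of their gliosis, and retinal astrocytes express it at rest. Gfap reached 229, 216 and 244 CPM in GFP, against 210.2, 184 and 170.1 CPM with Ezh2-Y726D. The groups did not overlap, but Ezh2-Y726D replicate 1 lay close to GFP replicate 2. The fall was significant, with a difference of -0.29 on the log2 scale (SE 0.0550, adjusted P = 0.000158, edgeR), which ran from -0.38 to -0.22 with 1 library left out.

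Vim (chromosome 2, 13573927 to 13582826, plus strand) is expressed by Müller glia at rest and by endothelial cells and macrophages. Vim counts were 538, 482 and 543 CPM in GFP, against 469.7, 437 and 443 CPM with Ezh2-Y726D, and all Ezh2-Y726D libraries were lower than all GFP libraries. Vim fell by 0.21 on the log2 scale (SE 0.0443, adjusted P = 0.000434, edgeR).

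Nes (chromosome 3, 87971078 to 87980451, plus strand) encodes nestin, a filament protein of neural progenitors that pericytes and endothelial cells also make. Nes had 52.3, 57.4 and 53.6 CPM in GFP, against 77.0, 64.5 and 66.8 CPM with Ezh2-Y726D. The groups did not overlap, and Ezh2-Y726D replicate 1 was the highest. The rise of 0.37 on the log2 scale (SE 0.0613, adjusted P = 2.74e-05, edgeR) was the largest difference of the 10 genes in either direction, and 90.2% of all genes tested had a lower value. Without Ezh2-Y726D replicate 1, it was 0.29.

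In all, 4 of the 10 genes were higher and 3 lower at an adjusted P under 0.05 in edgeR, against 13.9% and 13.6% of all genes. The groups were separate in 8 of the 10, against 38.6% of all genes. Of these, 4 were higher, against 19.7% of all genes, and 4 lower, against 18.9%. The standard errors of these genes lay between 0.0366 and 0.0651, while the median over all genes was 0.0883. On the log2 scale, the median difference was -0.04 over the identity genes, -0.21 over the gliosis genes and 0.00 over all genes. With 3 gliosis genes, their median is the value of Vim and does not reflect Nes, which rose by 0.37.

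**Figure D2:**
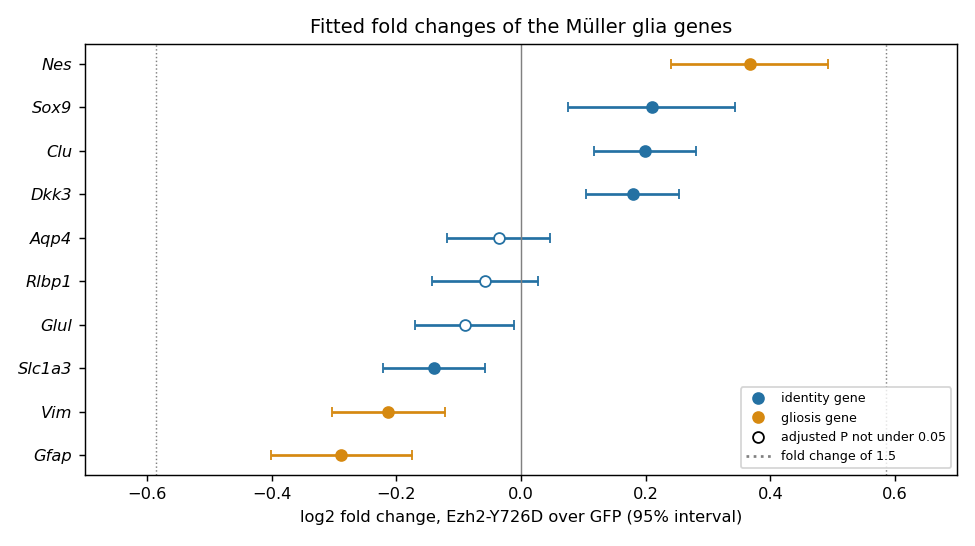
Fitted log2 fold changes of the 10 genes (Ezh2-Y726D over GFP, horizontal axis) with 95% intervals, filled where the adjusted P was under 0.05. The values run from -0.29 for Gfap to 0.37 for Nes, and all intervals lie inside the dotted lines at a fold change of 1.5.

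The scaling of the libraries moved all genes together. With library totals, which count the rRNA gene, the median of all genes moved to 0.49 and 65 genes were called, 46 higher and 19 lower, against 2525 higher and 2463 lower with TMM. None of the 10 Müller glia genes was then called by edgeR, and 1 had an unadjusted P under 0.05. Gfap, Vim and Slc1a3 had positive values with that scaling, and relative to the median of all genes they were at -0.27, -0.21 and -0.12. Nes, Sox9, Clu and Dkk3 were at 0.38, 0.22, 0.21 and 0.19 relative to that median.

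**Figure D3:**
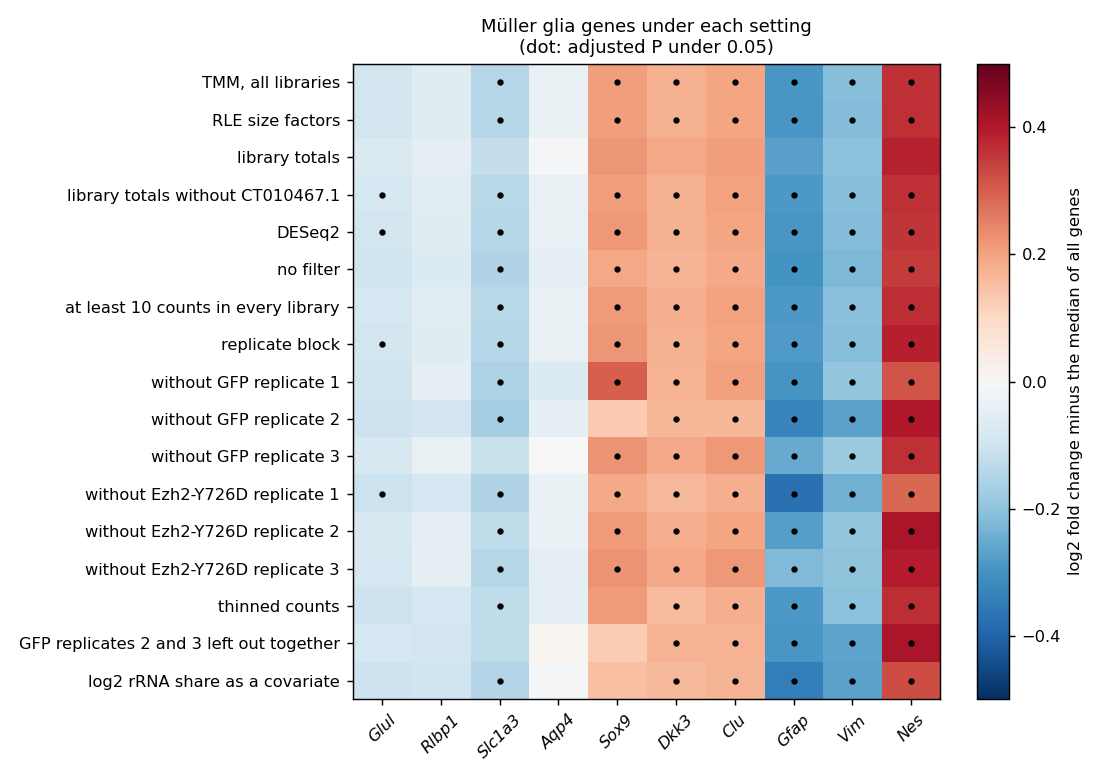
Log2 fold changes of the 10 genes minus the median of all genes tested (colour scale), for each way of processing the counts (vertical axis) and each gene (horizontal axis), with a dot where the adjusted P was under 0.05. Gfap, Vim and Slc1a3 stay below the median (blue) and Nes, Clu, Dkk3 and Sox9 above it (red) in each of them, while library totals hold no dot.

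Ratios between genes within a library do not depend on the scaling. The ratio of Gfap to Glul, in CPM per kb, was 0.0611, 0.0580 and 0.0635 in GFP and 0.0577, 0.0528 and 0.0485 after Ezh2-Y726D. For Vim to Glul, it was 0.128, 0.115 and 0.126 in GFP and 0.115, 0.112 and 0.112 after Ezh2-Y726D. Both ratios were lower in every Ezh2-Y726D library than in every GFP library, but by narrow gaps.

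The ratio of Nes to Vim was 0.0718, 0.0880 and 0.0729 in GFP and 0.121, 0.109 and 0.112 after Ezh2-Y726D, so that the groups were separate. The ratio of Gfap to Vim overlapped between the groups, with 0.496 ± 0.0148 in GFP and 0.469 ± 0.0358 after Ezh2-Y726D (SD, n = 3 libraries), and so did that of Rlbp1 to Glul. Of the 5 ratios tested, Gfap to Glul, Vim to Glul and Nes to Vim gave an exact permutation P of 0.1 (2-sided, 0.167 after adjustment over the 5), the smallest that the design allows. The summed level of the gliosis genes over that of the identity genes was 0.0701 ± 0.00233 in GFP and 0.0585 ± 0.00215 after Ezh2-Y726D (SD, n = 3 libraries), and the groups did not overlap.

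**Figure D4:**
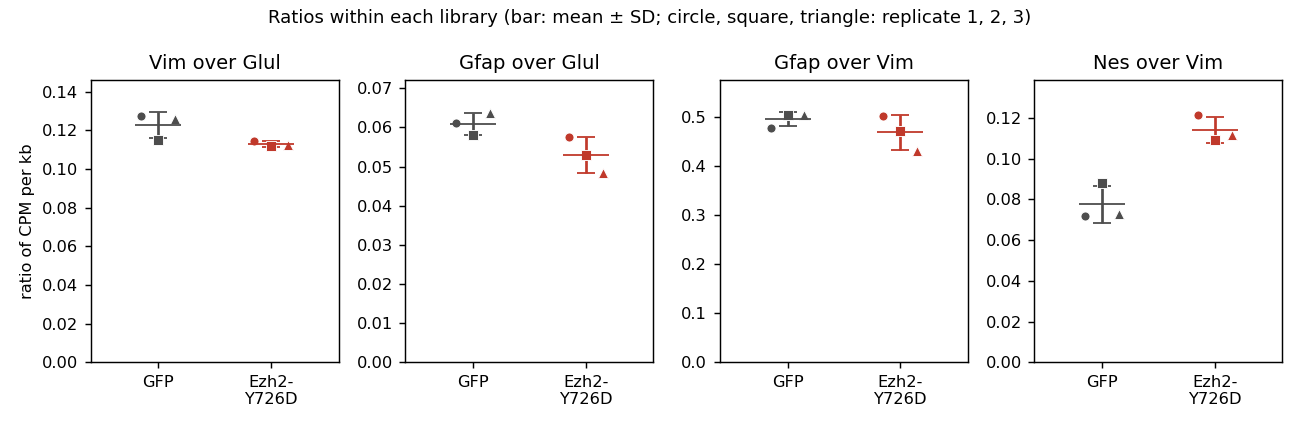
Ratios of CPM per kb between gene pairs (vertical axes, from 0) in each GFP (grey) and Ezh2-Y726D (red) library, with the mean and SD of each group. Nes over Vim is at least 0.109 in the Ezh2-Y726D libraries and at most 0.0880 in GFP, whereas Gfap over Vim overlaps.

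Further genes of Müller glia were followed in lists. Of 17 other genes enriched in Müller glia, 3 were higher, 3 lower and 11 did not pass, with a median log2 fold change of -0.01. Of all genes tested, 13.9% were higher and 13.6% lower, which is near the share in this list. Apoe, the apolipoprotein that glia and macrophages secrete, had the largest fall, from 3031, 3071 and 3195 CPM in GFP to 1989, 1994 and 1966 CPM with Ezh2-Y726D (log2 fold change -0.64, adjusted P = 3.2e-13, edgeR). Of this list, 1 gene, Apoe, passed a fold change of 1.5. The other falls were Crym, a binding protein for thyroid hormone, with -0.15, and the adhesion protein Cdh2 with -0.12 on the log2 scale.

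Dio2, which activates thyroid hormone, rose by 0.25, the potassium channel gene Kcnj10 by 0.17 and the GABA transporter gene Slc6a11 by 0.11 on the log2 scale. Slc6a11 passed narrowly (adjusted P = 0.0472, edgeR). The number of higher genes in this list was 2 with DESeq2 and without any single library other than Ezh2-Y726D replicate 3. Gpr37, Abca8a, Mlc1 and Spon1 did not pass, with values between -0.03 and 0.02. Without Ezh2-Y726D replicate 2, and likewise without Ezh2-Y726D replicate 3, 1 gene of this list was lower.

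Among 16 genes of glial progenitors and Notch signalling, 4 were higher, 3 lower and 9 did not pass, with a median of 0.00, beside 13.9% higher and 13.6% lower over all genes. The receptor genes Notch1 and Notch2 fell by 0.15 and 0.23 and the ligand gene Jag1 by 0.29 on the log2 scale, each without overlap between the groups. Hes5, Hey1 and Hes1, transcriptional repressors that Notch signalling induces, rose by 0.38, 0.23 and 0.18, and the nuclear factor gene Nfix by 0.14. The libraries of Hes5 and Hes1 overlapped between the groups, and 31.8% of the exonic bases of Hes5 are shared with another gene, which makes its count uncertain. The 4 rises became 0 without GFP replicate 2 or Ezh2-Y726D replicate 3, 1 without GFP replicate 1 or Ezh2-Y726D replicate 1, and 1 with DESeq2. Sox2, Lhx2, Rax and Nfia, transcription factors of Müller glia and progenitors, did not pass, with values between -0.09 and 0.03.

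The 22 genes of reactive glia had 8 lower, 3 higher and 11 that did not pass, with a median of -0.11, beside 13.6% lower and 13.9% higher over all genes. Steap4, which encodes a metalloreductase, had 37.4, 35.0 and 41.5 CPM in GFP, against 24.2, 24.5 and 22.0 CPM with Ezh2-Y726D (log2 fold change -0.68, adjusted P = 4.48e-09, edgeR). Lcn2, which encodes the iron-sequestering lipocalin 2, had 115, 103 and 124 CPM in GFP, against 85.0, 82.5 and 73.6 CPM with Ezh2-Y726D (log2 fold change -0.50, adjusted P = 3.63e-08, edgeR). For both genes the groups were well separated. The metalloproteinase inhibitor gene Timp1 and the NF-κB cofactor gene Bcl3 fell by 0.45 and 0.28 on the log2 scale.

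The other falls of this list were Cd44, Cryab, Stat3 and Cp, with values between -0.22 and -0.11. The rises were Fgf2, which encodes a growth factor, with 0.25, the transcription factor gene Cebpd with 0.24 and the receptor gene Egfr with 0.20. Osmr and Socs3, a receptor and a feedback inhibitor of cytokine signalling through Stat3, did not pass, at 0.00 and 0.10. Without Ezh2-Y726D replicate 2, and likewise without Ezh2-Y726D replicate 3, 5 genes of the list were lower.

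Gfap, Vim and Nes were also set beside the other intermediate filament genes. Of 14 members of the family, these 3 included, 3 were higher and 4 lower, beside 13.9% and 13.6% of all genes. Synm, whose product synemin joins filaments of vimentin or desmin, had the largest rise, from 52.6, 51.9 and 56.1 CPM in GFP to 80.7, 71.8 and 74.2 CPM with Ezh2-Y726D (log2 fold change 0.51, adjusted P = 2.1e-08, edgeR). Ina, a neuronal filament gene, rose by 0.27. Des, the filament gene of muscle, and Lmnb1, which encodes a nuclear lamin, fell by 0.68 and 0.41 on the log2 scale. Des was low, with means of 2.96 CPM in GFP and 1.95 CPM with Ezh2-Y726D. Its 95% interval was wide, from -1.09 to -0.28. The neurofilament genes Nefl, Nefm and Nefh did not pass, with values between -0.09 and -0.07.

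Markers of some other cell types also moved between the groups. Over all genes, 13.9% were higher and 13.6% lower. Summed levels of 9 microglia and macrophage genes lay between 969 and 1076 CPM in GFP and between 417 and 486 CPM after Ezh2-Y726D, with 6 lower and 1 higher, and these cells also express Vim and Apoe. Of the pericyte and smooth muscle genes, 5 of 6 were lower, with summed levels of 198 to 211 CPM in GFP and 157 to 170.4 CPM after Ezh2-Y726D. Of the endothelial genes, 2 of 6 were lower and 4 did not pass. Their summed levels, 951 to 1013 CPM in GFP and 896 to 959.9 CPM after Ezh2-Y726D, overlapped. Both vascular cell types express Nes.

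For retinal astrocytes, which express Gfap, 2 of 5 genes tested were lower, beside 13.6% of all genes. These were S100b, with a log2 fold change of -0.62, and Gja1, with one of -0.61. Both were low, with means of 5.84 and 3.06 CPM in GFP, against 3.72 and 1.96 CPM with Ezh2-Y726D. For Gja1, GFP replicate 2 (2.064 CPM) barely exceeded Ezh2-Y726D replicate 2 (2.058 CPM). The number of lower genes was 1 without GFP replicate 1, GFP replicate 3, Ezh2-Y726D replicate 1 or Ezh2-Y726D replicate 3. The summed level of the 6 astrocyte genes found, mostly from Aldh1l1 (mean 70.3 CPM in GFP), was 107 to 116 CPM in GFP and 105 to 114 CPM after Ezh2-Y726D. Pax2, their defining transcription factor, did not pass the filter, at 0.455 CPM in GFP, against 0.447 CPM with Ezh2-Y726D (means of 3 libraries).

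Amacrine genes were higher in 7 of 7 tested, with a median of 0.61, whereas 7 of 8 bipolar and 5 of 5 cone genes were lower. Rod genes had 2 of 7 higher, and RGC genes 2 of 11 higher and 1 lower, with medians of 0.11 and -0.07. Over all genes, 13.9% were higher and 13.6% lower, which is near the share in the RGC list. No gene found in these lists was at 0 in all libraries. The summed level of the 7 Müller glia identity genes was 8612 to 9066 CPM in GFP and 9025 to 9403 CPM after Ezh2-Y726D, and that of the 3 gliosis genes 756 to 841 CPM and 679.8 to 757 CPM, so that the groups overlapped in both. The part of other cell types in the values of the Müller glia genes, and in those of the glial lists such as the reactive genes, was not tested.

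**Figure D5:**
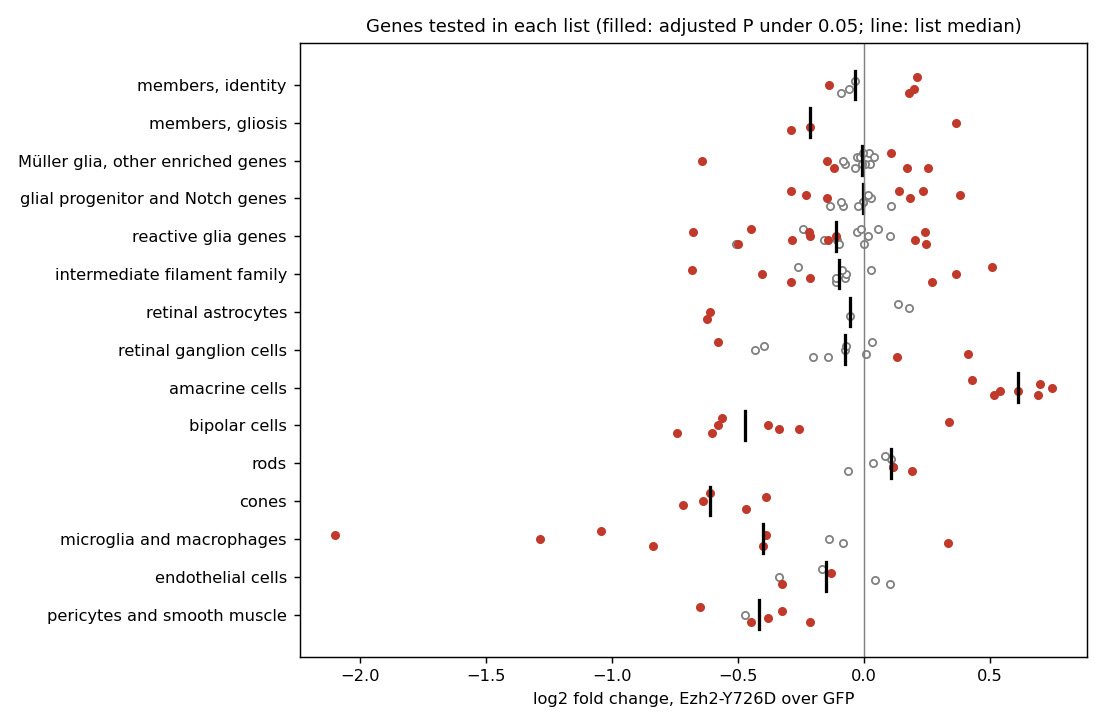
Log2 fold changes (Ezh2-Y726D over GFP, horizontal axis) of every gene tested in each list (vertical axis), filled where the adjusted P was under 0.05, with the median of the list as a line. The 10 Müller glia genes are the upper 2 lists, with medians of -0.04 and -0.21, whereas the amacrine median is 0.61 and the cone median -0.61.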

How the data were processed

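RNA came from sorted CD90.2-positive retinal cells, and the library kit keeps strand. The authors deposited raw counts, whole numbers of reads for each gene and library, without normalization. The submitters' processing notes name STAR 2.7.0d and GRCm38. The counting tool, the annotation and the strand setting were not given in the sources used here.

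From these counts, edgeR 4.0.16 in R 4.3.3 gave TMM factors, the filterByExpr filter (minimum count 10, minimum total 15), a quasi-likelihood test over 18138 genes and Benjamini-Hochberg adjustment. The counts left without CT010467.1 limit the precision. They were 20896150, 5745352 and 4460732 in GFP replicates 1, 2 and 3, and 15280377 to 22024582 in the Ezh2-Y726D libraries. Standard errors were derived from the F statistic, and 95% intervals use edgeR's degrees of freedom. Exonic lengths, coordinates and overlaps come from GENCODE vM21 (GRCm38), promoters from RefSeq. Every pair of libraries differed by more than counting noise (chi-square per degree of freedom of at least 1.49). The procedure was tested on simulated data.

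The members and lists were chosen with earlier results of these data known. Named were the 10 genes, Ezh2 and, of each glial list, up to 4 called rises and 4 called falls with at least 1 CPM. Genes named as not passed, the remaining falls of the reactive list, CT010467.1, Pax2 and the RGC markers were picked after values were seen. Of 133 listed genes 132 were found, and Gjb6 was not analysed here. Alternatives were RLE factors, library totals with and without CT010467.1, DESeq2 1.42.0, other filters, the replicate number as a block, each library left out, thinned counts and a fold threshold. Leaving out GFP replicates 2 and 3 together and the rRNA share as a covariate were added after the data were seen.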

Additional observations from a re-analysis of the deposited data

How the results depend on the processing

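With library totals, 0 of the 10 genes were called higher and 0 lower. The identity median was then 0.48 and the gliosis median 0.29. Slc1a3, Gfap and Vim turned to 0.37, 0.22 and 0.29 as the median of all genes moved to 0.49. Sox9 at 0.71, Dkk3 at 0.69, Clu at 0.70 and Nes at 0.87 were not called. The 5 glial lists had 0 calls with library totals. At a fold change over 1.5, 0 of the 10 genes were called. Of the lists at that fold, 1 other Müller glia, 1 reactive, 1 filament and 2 astrocyte genes were lower and 0 progenitor genes were called. Without a fold threshold, 8 of the 10 genes had an unadjusted P under 0.05 in edgeR, and DESeq2 called 4 higher and 4 lower. Without GFP replicates 2 and 3, which leaves 1 GFP library that is assumed to vary like the others, the identity median was 0.014, Sox9 (0.13) and Slc1a3 (-0.12) were lost and 1 progenitor gene was higher. Sox9 also missed the threshold with thinned counts (0.22) and with the rRNA covariate (0.15). Glul passed with DESeq2 (-0.094) and with totals that leave out CT010467.1 (-0.11). Thinned counts gave 1 other Müller glia gene higher, 4 reactive genes lower, and 0 astrocyte genes lower and 1 higher. The progenitor list had 1 gene higher with DESeq2 and 2 with the totals without CT010467.1 or the rRNA covariate, and the astrocyte list 1 lower with DESeq2 or that covariate and 1 higher with either other filter.

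Leaving out each library in turn, 3 to 4 of the 10 genes were higher and 2 to 4 lower, the identity median ran from -0.05 to 0.00 and the gliosis median from -0.26 to -0.18. Values ran from -0.11 to -0.077 for Glul, -0.16 to -0.11 for Slc1a3 and 0.13 to 0.30 for Sox9. Of the other Müller glia genes 2 to 3 were higher and 1 to 3 lower, of the progenitor genes 0 to 3 and 2 to 3, of the reactive genes 5 to 10 lower, and of the astrocyte genes 0 to 1 higher and 1 to 2 lower. Gfap, Vim, Nes, Clu and Dkk3 passed in every alternative but library totals and the fold threshold; causes were not tested. Over all genes, thinned counts called 3310 and library totals 65, against 4988.

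Both groups share replicate numbers. Deviations of same-numbered libraries from their group means correlated at 0.12, 0.04 and 0.04, so the numbers were not taken as pairs, although every library correlated best with its own number. The replicate block called 5222 genes, with 4 of the 10 genes higher and 4 lower, Glul (-0.090) being added, an identity median of -0.036, a gliosis median of -0.21 and 1 astrocyte gene higher.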
